A study of Homo sapiens with 7 samples.

Results

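The mitochondrial ribosomal protein genes are 77 nuclear genes, 49 for the large subunit (symbols beginning MRPL) and 28 for the small subunit (MRPS), out of 20037 protein-coding genes on the nuclear chromosomes. They were taken by symbol from RefSeq (GRCh38.p14). Binding of Myc was mapped by CUT&RUN, in which an antibody directs a nuclease to cut the DNA around a bound protein so that the released fragments can be sequenced. The cells were of HT29, a cell line derived from a colon cancer, and per the labels they were held for 6 h in oleic acid, a monounsaturated fatty acid, without serum. By title, Myc and IgG control had 3 libraries each and the input had 1, and the labels carry the same Myc antibody on the IgG libraries as on the Myc libraries. All of them share the oleic acid treatment, so nothing below measures its effect.

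Mitochondria make the few proteins encoded in their own genome, all of them parts of the respiratory chain or ATP synthase, on a dedicated ribosome. Its RNAs come from mitochondrial DNA, but every protein of it is made in the cytosol from nuclear genes and imported. Many of these proteins have counterparts in the bacterial ribosome, and others were added in the mitochondrial lineage. Myc, bound to DNA together with MAX, is known as an activator of genes for ribosome formation and mitochondrial biogenesis in growing cells, and it prefers the E-box sequence.

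The authors' data used here are 1 list of 47016 peaks on the nuclear chromosomes, with 1 value per peak and none per library, so no spread between replicates exists for any value. The strength of a peak is the authors' fold enrichment of Myc over control at its summit, with 1 added to each. The Myc pileup, the number of fragments over the summit, was recovered from the fold and the p-value. Ranges in parentheses after the fold of a single peak are exact Poisson 95% intervals of that pileup, which cover counting error only. The median peak of the list had a fold of 4.11 and a pileup of 29. A peak list holds no expression, so neither the identity of the cells nor the output of these genes can be read from it. Because genes are not replicates, groups of genes are described by counts and medians with no test.

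All 77 mitochondrial ribosomal protein genes carried a Myc peak. A summit lay in the gene or within 1 kb of it at 77 of 77 genes (100%, Wilson 95% interval 95.2 to 100), where 68.8% of all protein-coding genes had one. The members are short, with a median length of 8618 bp, against 24115 bp over all protein-coding genes. Among protein-coding genes no longer than the upper quartile of the members, 54.7% had a summit by the same rule. The summits were also close to the starts of the genes. All 77 members had a summit within 1 kb of an annotated start, where 58.2% of all protein-coding genes did. At 69 members that start peak had a fold of 5 or more, and 46.9% of all protein-coding genes had such a peak.

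The start peaks of the members spanned a 14.6-fold range in strength around a median of 9.05 (quartiles 6.92 and 11.96), where the median over all 11669 protein-coding genes with a start peak was 7.92. Most members lay above that median, and few stood at the very top. Of the 77 genes, 53 lay above the median of all protein-coding genes and 66 among the upper 75%. In the top 25% there were 25 (32.5%), in the top 10% there were 8 (10.4%) and in the top 5% there were 3 (3.90%). The Poisson interval lay wholly above the coding median at 31 members, held it at 34 and lay wholly below it at 12. The median pileup at the start summits was 69 fragments, between 21 at MRPS6 and 271 at MRPS18B. Control levels ran from 5.093, the floor of the list, which 14 members were at, to 14.4 at MRPL45.

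**Figure D1:**
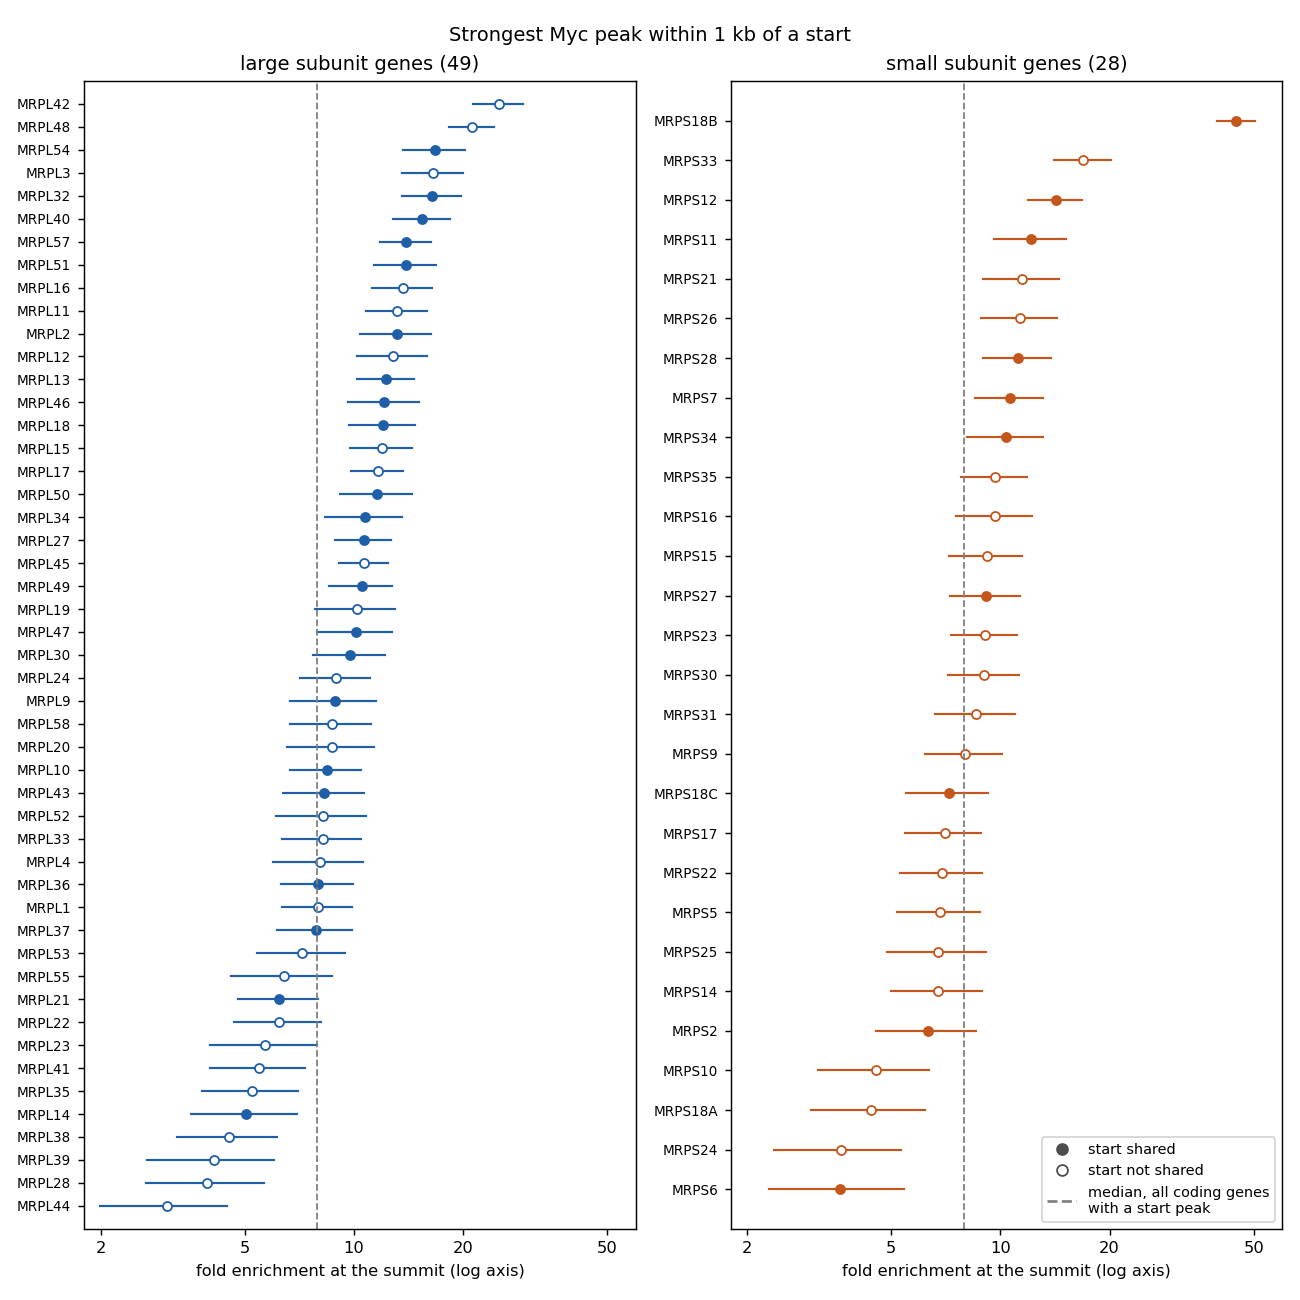
Fold enrichment of the strongest Myc peak within 1 kb of a start (log axis) for each of the 49 large subunit genes (left) and 28 small subunit genes (right). Bars are exact Poisson 95% intervals of counting error, filled points are genes whose start is shared with another protein-coding gene, and the dashed line is the median of all protein-coding genes with a start peak (7.92). MRPS18B at 44.6 stands apart on the right, and MRPL44 at 3.05 is the lowest.

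The strongest peak was that of MRPS18B, which encodes a small subunit member of the MRPS18 family of paralogs. Its summit at position 30617644 of chromosome 6 lay 196 bp before the start of the gene (30617840 to 30626392, plus strand). With 271 fragments over the floor of the control, the fold was 44.6 (39.5 to 50.3), and its interval overlapped that of no other member. The start of PPP1R10, which encodes a regulatory subunit of protein phosphatase 1, lies 597 bp from the start of MRPS18B on the opposite strand, so the peak cannot be given to either gene alone. The other genes of that family were far lower. MRPS18C had 7.19 (5.49 to 9.26) and MRPS18A, whose protein sits in the large subunit despite its name, had 4.39 (3.00 to 6.20). The sequence from 250 bases before to 30 after the start of MRPS18B is shown because it holds the summit of the strongest member. It is RefSeq sequence of GRCh38.p14, chr6:30617590-30617869, plus strand, with the 11 bases centred on the summit in capitals.
MRPS18B: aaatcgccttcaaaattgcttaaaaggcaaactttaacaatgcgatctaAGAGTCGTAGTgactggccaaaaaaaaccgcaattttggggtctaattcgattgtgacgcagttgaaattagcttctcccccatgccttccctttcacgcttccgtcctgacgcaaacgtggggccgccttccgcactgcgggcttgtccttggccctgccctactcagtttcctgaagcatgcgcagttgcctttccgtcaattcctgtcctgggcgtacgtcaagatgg

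Next in order were 2 genes of the large subunit whose starts are not shared. MRPL42, which encodes a protein without a bacterial counterpart, had a fold of 25.1 (21.3 to 29.4) from a pileup of 155, with the summit 129 bp into the gene (chromosome 12, 93467643). MRPL48, for a protein of the central protuberance, the part of the large subunit that faces the head of the small one, had 21.1 (18.3 to 24.3) from a pileup of 193, with the summit 145 bp into the gene (chromosome 11, 73788019). The intervals of MRPL42 and MRPL48 overlapped. With MRPS18B, these were the members in the top 5% of all protein-coding genes with a start peak.

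Below them the folds formed a continuous slope. MRPS33, of the small subunit, had 16.9 (14.1 to 20.2) from a pileup of 120, with the summit 84 bp into the gene (chromosome 7, 141014868). MRPL54, of the large subunit, had 16.7 (13.7 to 20.3) from a pileup of 101, with the summit 93 bp into the gene (chromosome 19, 3762775), and its start lies 990 bp from that of APBA3. MRPL3, the gene of a counterpart of bacterial ribosomal protein L3, had 16.6 (13.6 to 20.02) from a pileup of 105, with the summit 173 bp into the gene (chromosome 3, 131502798). The intervals of all 3 overlapped. MRPL32, whose protein must be cut by a mitochondrial protease before it can enter the ribosome in yeast and mouse, had 16.4 (13.6 to 19.7) from a pileup of 114 (chromosome 7, 42932495). MRPL40, another gene of the central protuberance, had 15.4 (12.8 to 18.5) from a pileup of 118, with the summit 381 bp before the start (chromosome 22, 19432164), and HIRA starts 812 bp away. MRPS12, the counterpart of the bacterial protein S12 that lines the decoding centre, had 14.2 (11.9 to 16.8) from a pileup of 134 (chromosome 19, 38930611). MRPL57, which starts 106 bp from SKA3, had 13.95 (11.8 to 16.4) from a pileup of 150 (chromosome 13, 21176846). These 4 intervals overlapped as well. Over the whole order of 77 genes, the intervals of neighbours failed to overlap in 1 of 76 neighbouring pairs, that of MRPS18B and MRPL42.

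At the low end, MRPL44 had a start peak with a fold of 3.05 (2.00 to 4.47) from a pileup of 24. Its protein sits near the exit of the peptide tunnel and has a fold related to RNase III. The summit lay 479 bp into the gene from the nearer of its annotated starts (chromosome 2, 223957942). MRPS6, for the counterpart of bacterial S6, had 3.61 (2.30 to 5.43), and its start coincides with that of the inositol transporter gene SLC5A3 on the same strand. MRPS24, for the counterpart of bacterial S3, had 3.63 (2.38 to 5.33), with the summit 740 bp into the gene. MRPL28 had 3.94 (2.67 to 5.64) and MRPL39 had 4.10 (2.69 to 6.02). The intervals of these 5 genes all overlapped, and all their upper bounds lay below the median of all protein-coding genes.

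The remaining members fell between these ends. Start folds from 10 to 15 were found at 25 genes, which were MRPS12, MRPL57, MRPL51, MRPL16, MRPL11, MRPL2, MRPL12, MRPL13, MRPS11, MRPL46, MRPL18, MRPL15, MRPL17, MRPL50, MRPS21, MRPS26, MRPS28, MRPL34, MRPL27, MRPL45, MRPS7, MRPL49, MRPS34, MRPL19 and MRPL47. A further 20 lay between the coding median and 10, namely MRPL30, MRPS35, MRPS16, MRPS15, MRPS27, MRPS23, MRPS30, MRPL24, MRPL9, MRPL58, MRPL20, MRPS31, MRPL10, MRPL43, MRPL52, MRPL33, MRPL4, MRPL36, MRPS9 and MRPL1. Between 5 and the coding median there were 16, namely MRPL37, MRPL53, MRPS18C, MRPS17, MRPS22, MRPS5, MRPS25, MRPS14, MRPL55, MRPS2, MRPL21, MRPL22, MRPL23, MRPL41, MRPL35 and MRPL14. Besides the 5 lowest, folds under 5 were found at MRPS10 (4.53, 3.14 to 6.34), MRPL38 (4.52, 3.24 to 6.13) and MRPS18A.

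By place in the ribosome, in groups drawn after the values were seen, start folds varied within the 3 parts of the large subunit looked at, of which some genes are given. In the stalk region, where translation factors bind, MRPL54 had 16.7, MRPL11 had 13.2 (10.8 to 15.9), MRPL12 had 12.8 (10.2 to 15.9) and MRPL10 had 8.41 (6.68 to 10.5). In the central protuberance, MRPL48 had 21.1, MRPL40 15.4, MRPL46 12.1, MRPL18 12.003 and MRPL27 10.7, while MRPL38 had 4.52. Around the peptide exit tunnel, MRPL45, whose protein ties the ribosome to the inner membrane, had 10.6 (9.08 to 12.4), MRPL24 had 8.93, MRPL22 6.21 and MRPL23 5.70, with MRPL44 below them. MRPL58, the gene of a peptidyl-tRNA hydrolase that rescues stalled ribosomes and is built into the large subunit, had 8.70 (6.66 to 11.2). The 48 proteins with a bacterial counterpart had a median start fold of 8.89 and the 29 added in mitochondria one of 9.14.

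All genes of both subunits had peaks, and the median strengths were close. All 49 large subunit genes (Wilson 95% interval 92.7 to 100) and all 28 small subunit genes (87.9 to 100) had a start peak. The median start fold was 9.78 in the large subunit (quartiles 7.84 and 12.3) and 9.04 in the small subunit (6.78 and 10.7). Above the coding median of 7.92 lay 36 of 49 large subunit genes and 17 of 28 small subunit genes. The ranges overlapped almost entirely, from 3.05 to 25.1 and from 3.61 to 44.6. MRPS30 and MRPS18A encode proteins that are placed in the large subunit in the human structure. With these counted there, the medians were 9.03 over 51 large subunit genes and 9.10 over 26 small subunit genes, so the order turned. Median widths of the start peaks were 1424 bp and 1621 bp by symbol.

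Members whose start lay within 1 kb of the start of another protein-coding gene had stronger peaks at the median than the others. Such starts were found at 32 members (41.6%), against 18.3% of all protein-coding genes. The median start fold was 10.6 (quartiles 8.38 and 12.5) over the 32 members with a shared start and 8.21 (6.40 and 10.6) over the 45 with a start of their own. The fold is that of the strongest start peak of the gene, which need not lie at the shared start. At MRPL34 that summit lay 10691 bp from the start of the partner, ABHD8. Shared and unshared starts differed in the same direction over all protein-coding genes. A start peak was found at 84.8% of the genes with a shared start, with a median of 9.59, and at 52.3% of the others, with a median of 7.39. The order held within each subunit, with 10.7 over 22 shared and 8.21 over 27 unshared large subunit genes, and 10.5 over 10 shared and 8.28 over 18 unshared small subunit genes. The ranges overlapped in both, and the strongest unshared members, MRPL42 and MRPL48, exceeded every shared one but MRPS18B. Start peaks were wider at shared starts too, at a median of 1863 bp, against 1328 bp at unshared ones. Over all protein-coding genes the widths differed in the same direction, with medians of 1806 bp and 1441.5 bp.

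**Figure D2:**
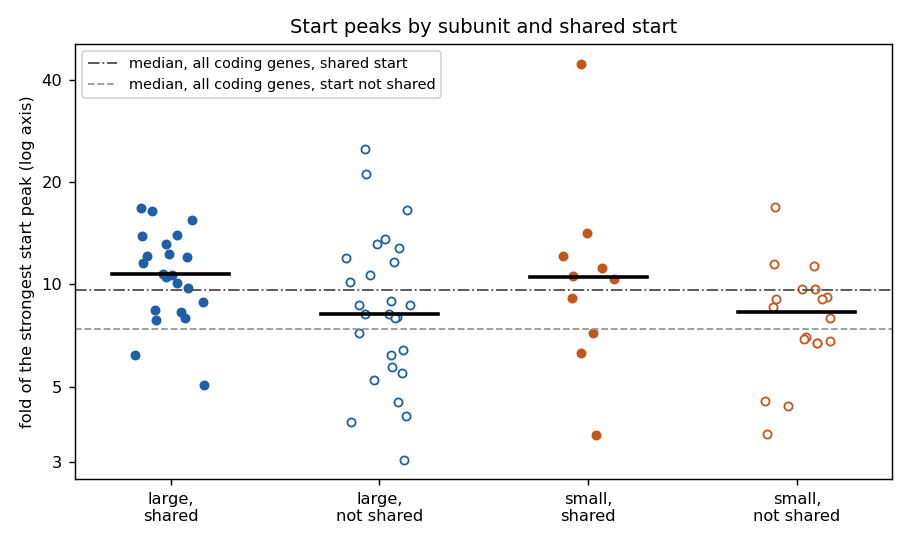
Fold of the strongest start peak (log axis) for each mitochondrial ribosomal protein gene, by subunit and by whether its start lies within 1 kb of another protein-coding start; points are genes, spread sideways at random for visibility, and thick bars are medians. The medians are 10.7 and 8.21 in the large subunit and 10.5 and 8.28 in the small one, and thin lines mark 9.59 and 7.39, the medians of all protein-coding genes with shared and unshared starts.

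Several of the 33 genes that share a start with a member also serve mitochondria. Their share was not set against that over all protein-coding genes with a shared start. MRPL46 and MRPS11 start 320 bp apart on opposite strands and share a single peak, with a fold of 12.1 (9.61 to 15.1) and a summit 172 bp before the start of MRPL46 and 148 bp before that of MRPS11. MRPL36 starts 27 bp from NDUFS6 and MRPL47 148 bp from NDUFB5, both of which encode subunits of respiratory complex I, and these peaks had folds of 7.97 (6.31 to 9.94) and 10.1 (7.90 to 12.8). MRPL43 starts 46 bp from TWNK, the helicase of mitochondrial DNA, with a fold of 8.29 (6.36 to 10.6). MRPS12 starts 181 bp from SARS2, the mitochondrial seryl-tRNA synthetase gene. MRPS27 starts 133 bp from PTCD2, and both encode pentatricopeptide repeat proteins of mitochondria.
Other shared starts join a member to genes of the cytosol and nucleus. MRPL49 starts 49 bp from FAU, which encodes a protein of the cytosolic small ribosomal subunit, and had 10.5 (8.56 to 12.8). MRPL18 starts 210 bp from TCP1, a chaperonin gene, and MRPL32 starts 202 bp from PSMA2, a proteasome gene. MRPL30 starts 126 bp from MITD1 and had 9.78 (7.73 to 12.2). MRPL27 starts 45 bp from EME1 and MRPS34 324 bp from EME2, paralogs that act in DNA repair as partners of the MUS81 nuclease, with folds of 10.7 (8.90 to 12.7) and 10.4 (8.10 to 13.1). Of the 32 members with a shared start, 24 lie on the strand opposite to the partner and 1, MRPS6, on the same strand. For the other 7 the strand of a gene was not used. The share on opposite strands over all protein-coding genes with a shared start was not computed. The sequence before MRPS11 is shown because a single summit lies between the starts of a large and a small subunit gene (GRCh38.p14, chr15:88467458-88467737, plus strand, from 250 bases before to 30 after the start of MRPS11, with the 11 bases centred on the summit in capitals).
MRPS11: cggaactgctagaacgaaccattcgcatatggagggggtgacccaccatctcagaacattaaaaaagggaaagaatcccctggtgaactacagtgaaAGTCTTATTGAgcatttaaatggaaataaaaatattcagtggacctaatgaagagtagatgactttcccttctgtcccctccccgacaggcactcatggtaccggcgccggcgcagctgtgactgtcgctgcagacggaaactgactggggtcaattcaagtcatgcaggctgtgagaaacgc

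Start summits of the members clustered at a short distance inside the gene. For 69 members with a known strand, the strongest start summit lay at a median of 117 bp past the nearest start, against 85 bp over 9706 protein-coding genes with a start peak and a known strand. Of the 69, 32 (46.4%) had it 100 to 199 bp past the start, where 28.6% of all those protein-coding genes did. A smaller group of 18 members (26.1%) had it 100 to 400 bp before the start, against 30.1%. The cytosolic ribosomal protein genes had 42.9% and 30.2% in the same 2 intervals.

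The large and small subunit genes differed in how often the summit lay past the start. It did so at 34 of 42 large subunit genes (81.0%) and 13 of 27 small subunit genes (48.1%), where the share over all protein-coding genes was 56.9%. In the interval from 100 to 199 bp past the start there were 25 large subunit genes (59.5%) and 7 small subunit genes (25.9%). In the interval from 100 to 400 bp before the start there were 7 (16.7%) and 11 (40.7%). With MRPS30 and MRPS18A counted in the large subunit, summits lay past the start in 81.8% of 44 large and 44.0% of 25 small subunit genes. Summits before the start were found at 7 of the 9 small subunit genes with a shared start and a known strand, and at 3 of 18 such large subunit genes. At unshared starts they were found at 7 of 18 small and 5 of 24 large subunit genes, so the subunits lay closer there. Among shared starts, examples are MRPS12 at 333 bp before the start, MRPS7 at 95 bp and MRPS34 at 164 bp, against MRPL32 at 119 bp past it and MRPL27 at 122 bp. At shared starts a summit before the member can lie inside the partner gene. It lay 152 bp past the start of SARS2 at MRPS12, 488 bp past that of EME2 at MRPS34 and 125 bp past that of PTCD2 at MRPS27. At MRPS18B, MRPS7 and MRPS11 it lay between the start of the member and that of the partner. These shares are a description, with no test.

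**Figure D3:**
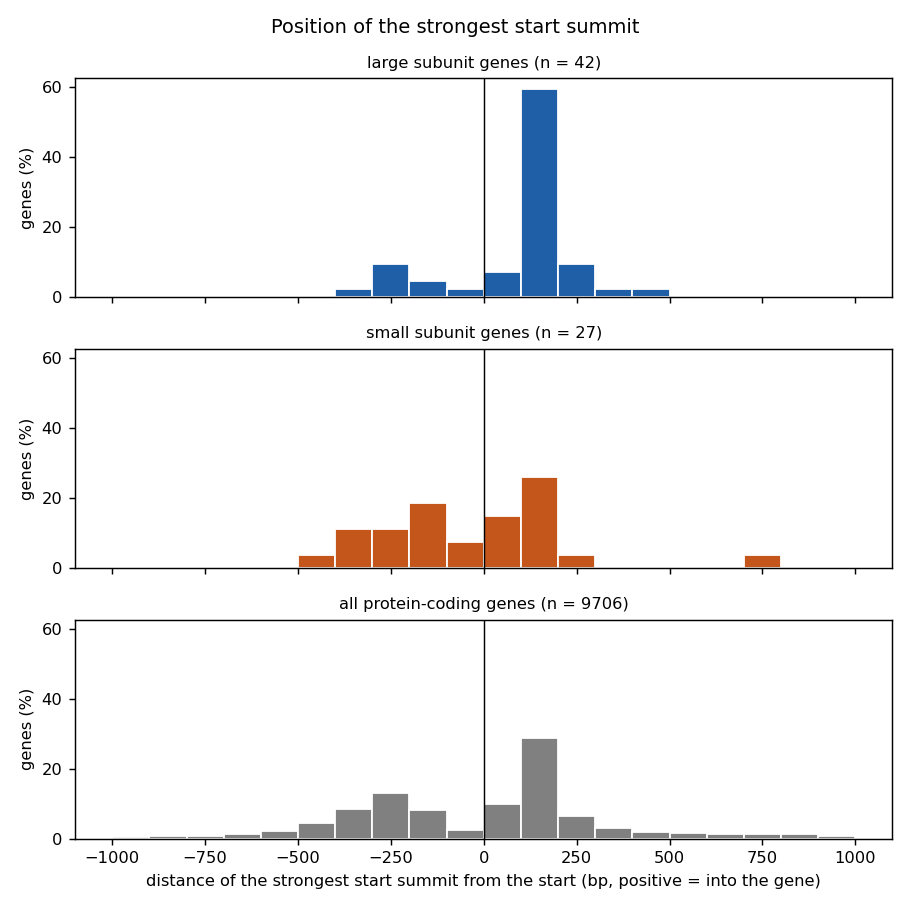
Distance of the strongest start summit from the nearest annotated start, in bins of 100 bp, as a percentage of genes, for 42 large subunit genes, 27 small subunit genes and 9706 protein-coding genes with a start peak and a known strand. Positive values run into the gene. The bin from 100 to 199 bp past the start holds 59.5% of the large subunit genes, 25.9% of the small subunit genes and 28.6% of all protein-coding genes.

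The E-box was not common in the promoters of the members. Promoter sequence from 250 bases before to 50 after a start was in the RefSeq table for 69 members. Both strands were searched for CACGTG (E-box), CACGCG (a variant E-box), CCGGAAG (the core site of ETS factors), the full site of NRF1, a regulator of nuclear genes for mitochondria, and the site of YY1 in the form shown in capitals in the YY1 stretches. A gene was counted when any of its windows held the motif, and matches of different motifs may overlap. The E-box was found at 9 of 69 members (13.0%), against 12.9% of all protein-coding genes with a start peak and 7.76% of those without. The variant E-box was found at 12 members (17.4%), against 22.6% and 11.0%. The median start fold was 7.84 over the 9 members with an E-box and 9.16 over the 60 without. Over all protein-coding genes with a start peak the order was the other way, with 9.13 and 7.94, as it was over members with unshared starts, with 10.6 over 3 genes and 8.21 over 39. The whole NRF1 site was found at 1 member, MRPL17 (1.45%), against 2.76% and 0.766%.

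The ETS and YY1 sites were more frequent. The ETS site was in the windows of 30 members (43.5%, Wilson 95% interval 32.4 to 55.2), against 23.7% of all protein-coding genes with a start peak and 5.15% of those without. The YY1 site was in those of 13 members (18.8%, 11.4 to 29.6), against 3.41% and 0.342%. At least 1 of these sites was present at 39 of 69 members (56.5%), against 26.1% of all protein-coding genes with a start peak, and 4 members had both. By subunit, the ETS site was at 42.9% of 42 large and 44.4% of 27 small subunit genes, and the YY1 site was at 19.0% and 18.5%. Members with the ETS site had a median start fold of 9.72 and those without one of 8.93. For the YY1 site the values were 8.21 and 9.16. In the cytosolic ribosomal protein genes the ETS site was at 33.8% and the YY1 site at 4.62%. Other genes of mitochondrial translation, described below, held these sites too. The ETS site was at TUFM, GFM1 and MTIF2 among others, and the YY1 site at PTCD3 and SLIRP, while DAP3 had neither. Their shares were not computed, so the sites are not shown to be particular to the members. A match is a run of letters and not a measured site of any factor.

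**Figure D4:**
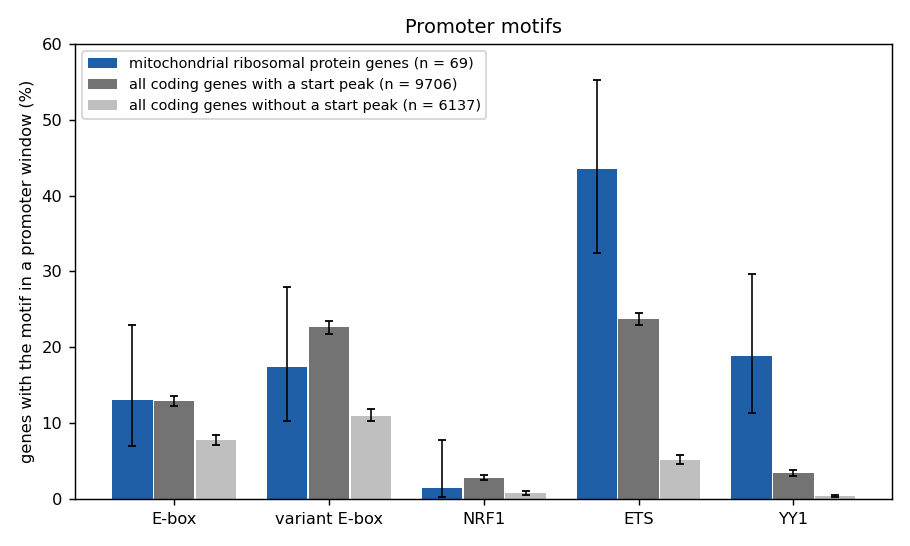
Share of genes with each motif in a promoter window (250 bases before to 50 after a start), for 69 mitochondrial ribosomal protein genes, 9706 protein-coding genes with a start peak and 6137 without one, with Wilson 95% intervals as error bars. The ETS site reaches 43.5% and the YY1 site 18.8% in the mitochondrial ribosomal protein genes, and the E-box bars of these genes (13.0%) and of all genes with a start peak (12.9%) are level.

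Most YY1 matches lay past a start. In 10 of 13 members the match began 7 to 36 bases past a start. The windows end 50 bases past a start, so the sequence beyond was not searched. The 250 bases before a start alone held the site at 3 of the 13 members. Among all protein-coding genes with a start peak they held it at 76 of 331, so this placing is not particular to the members. The stretches below run from 50 bases before to 30 after the start, in RefSeq sequence of GRCh38.p14 on the strand of the gene, with the YY1 match in capitals. The 8 members whose whole match falls in that stretch are shown, because in 7 of them the same letters recur a short way past the start, in genes of both subunits, with start folds from 25.1 at MRPL42 to 3.63 at MRPS24. At MRPL36 the match lies before the start and on the other strand.
MRPL42, chr12:93467464-93467543, plus strand: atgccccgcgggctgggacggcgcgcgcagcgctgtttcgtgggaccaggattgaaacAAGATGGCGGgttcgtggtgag
MRPL46, chr15:88467359-88467438, minus strand: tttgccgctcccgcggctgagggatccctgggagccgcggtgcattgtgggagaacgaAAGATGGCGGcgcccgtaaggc
MRPS30, chr5:44808897-44808976, plus strand: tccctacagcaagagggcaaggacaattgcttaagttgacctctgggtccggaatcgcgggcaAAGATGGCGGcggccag
MRPL36, chr5:1799808-1799887, minus strand: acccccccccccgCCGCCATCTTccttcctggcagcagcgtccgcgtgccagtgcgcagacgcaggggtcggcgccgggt
MRPS10, chr6:42217832-42217911, minus strand: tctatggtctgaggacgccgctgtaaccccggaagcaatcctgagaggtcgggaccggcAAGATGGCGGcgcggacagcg
MRPL38, chr17:75904855-75904934, minus strand: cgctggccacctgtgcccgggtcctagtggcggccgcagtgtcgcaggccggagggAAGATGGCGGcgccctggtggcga
MRPS18A, chr6:43687762-43687841, minus strand: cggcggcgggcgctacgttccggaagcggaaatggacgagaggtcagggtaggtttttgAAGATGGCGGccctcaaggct
MRPS24, chr7:43869488-43869567, minus strand: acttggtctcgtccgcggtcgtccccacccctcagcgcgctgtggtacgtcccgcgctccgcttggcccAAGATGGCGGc

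The ETS matches lay mostly just before the start. The 250 bases before a start alone held the site at 25 of the 30 members. Among all protein-coding genes with a start peak they held it at 1949 of 2303. Matches were within the stretch from 50 bases before to 30 after a start at 25 of 30 members, and the median match began 26 bases before the start. The 4 members with the highest start folds among those with a match in this stretch are printed over it, with the ETS match in capitals. At MRPL54, MRPL3 and MRPL40 the match lies before the start, and at MRPS33 it begins at the start and runs into the gene.
MRPS33, chr7:141014923-141015002, minus strand: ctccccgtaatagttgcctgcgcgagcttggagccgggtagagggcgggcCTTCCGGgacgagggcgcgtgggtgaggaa
MRPL54, chr19:3762632-3762711, plus strand: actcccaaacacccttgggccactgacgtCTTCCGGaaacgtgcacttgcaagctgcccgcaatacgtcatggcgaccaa
MRPL3, chr3:131502942-131503021, minus strand: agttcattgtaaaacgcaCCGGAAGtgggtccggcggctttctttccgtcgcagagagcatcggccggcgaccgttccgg
MRPL40, chr22:19432495-19432574, plus strand: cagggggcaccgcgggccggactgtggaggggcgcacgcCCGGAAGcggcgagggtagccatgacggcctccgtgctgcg

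For the 9 members with an E-box in a window, the distance from the centre of the nearest E-box to the start summit ranged from 90.5 bp at MRPS33 to 1368.5 bp at MRPL36, with a median of 343.5 bp. These distances are set in part by the search, since the windows end 50 bases past a start while 32 of 69 start summits lay 100 to 199 bp past it, and the sequence there was not searched. At MRPL14, MRPL36, MRPL49, MRPS2 and MRPS33 the E-box is in the window of another start than the one nearest the summit. The median distance includes these genes. The 3 strongest members that hold an E-box are shown from 250 bases before to 30 after the start, with the E-box in capitals. Their start folds were 16.9 at MRPS33, 10.6 at MRPL45 and 10.5 at MRPL49. For MRPS33 the window is that of the inner of its annotated starts, and it holds the summit (141014868). For MRPL49 the window is that of the outer start, and the summit lies past the end of that window.
MRPS33, chr7:141014650-141014929, minus strand: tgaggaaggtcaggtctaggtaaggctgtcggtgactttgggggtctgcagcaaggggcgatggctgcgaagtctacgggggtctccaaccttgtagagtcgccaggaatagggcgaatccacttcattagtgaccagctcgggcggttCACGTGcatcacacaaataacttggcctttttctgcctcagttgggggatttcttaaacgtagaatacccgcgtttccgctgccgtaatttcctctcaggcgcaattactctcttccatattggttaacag
MRPL45, chr17:38296918-38297197, plus strand: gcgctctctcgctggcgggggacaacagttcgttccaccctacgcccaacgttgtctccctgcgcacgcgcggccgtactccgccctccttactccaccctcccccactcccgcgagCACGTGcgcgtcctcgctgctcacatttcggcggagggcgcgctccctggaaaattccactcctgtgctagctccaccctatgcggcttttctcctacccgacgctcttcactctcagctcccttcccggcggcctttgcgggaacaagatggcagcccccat
MRPL49, chr11:65121933-65122212, plus strand: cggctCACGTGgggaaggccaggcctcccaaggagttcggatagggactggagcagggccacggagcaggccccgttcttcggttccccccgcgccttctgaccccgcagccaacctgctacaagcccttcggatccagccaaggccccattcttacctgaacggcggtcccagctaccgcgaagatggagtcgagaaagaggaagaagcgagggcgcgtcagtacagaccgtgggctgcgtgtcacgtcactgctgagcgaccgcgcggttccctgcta

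Most members held a single summit, and most summits away from a start were weak. Of the 77 genes, 61 had 1 summit, 10 had 2 and 6 had 3 or more. Among the 13793 protein-coding genes with a peak, 6903 had 1 summit. The members are shorter, at a median of 8618 bp, against 24115 bp over all protein-coding genes. Away from the starts, 23 summits were found inside 11 genes, with a median fold of 3.45 and a median width of 489 bp, against 8.89 and 1423 bp for the 82 at starts, where the peak of MRPL46 and MRPS11 counts for each. A further summit, with a fold of 5.63, lay past the end of MRPS18B and 139 bp from the start of ATAT1. Whether the inner summits lie in exons or introns was not examined, since gene spans alone were used.

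The clearest exception was MRPS27, with 4 summits. The one 11993 bp into the gene (chromosome 5, 72308247) had a fold of 24.5 (20.7 to 28.7) from a pileup of 148, above 99.7% of all peaks. The start peak of the same gene had 9.14 (7.27 to 11.4), so the intervals did not overlap, and the nearest start of another protein-coding gene was that of PTCD2, 12126 bp away. In MRPL45, with 3 summits, those 23259 and 25071 bp into the gene had 10.2 (8.14 to 12.6) and 7.38 (5.66 to 9.46), against 10.6 at its start. In MRPS28 a summit far inside the gene had 7.62 (5.83 to 9.79), against 11.2 (8.97 to 13.8) at its start. MRPS10 was the other member whose strongest peak was not at a start, with 5.25 (3.62 to 7.39) at 2711 bp and 4.53 at 117 bp, and those intervals overlapped.

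MRPL13 had the most summits of any member, 7. Its start peak had 12.3 (10.2 to 14.7), and the 6 inside the gene ranged from 2.24 to 5.08. Control levels at these summits on chromosome 8 ran from 8.93 to 14.7, where the median over all peaks of the list was 5.92. MRPL14 had 4 summits, with 5.04 (3.55 to 6.96) at the start. MRPS35 also had 4, with 9.67 (7.81 to 11.8) at the start and 2.30 to 2.85 inside. MRPL1 had 3, with 7.97 (6.34 to 9.89) at the start and 2.82 and 3.45 inside. In these 4 genes the start peak was the strongest.

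Other genes of mitochondrial translation also carried Myc peaks at their starts. Of 49 such genes in 3 lists, 48 (98.0%, Wilson 95% interval 89.3 to 99.6) had a start peak, with a median fold of 9.58. All 5 mitochondrial ribosomal proteins with other symbols had one. They were PTCD3 at 24.8 (21.3 to 28.7) and DAP3 at 16.7 (13.8 to 20.01), both of the small subunit and both with shared starts, AURKAIP1 at 6.22, GADD45GIP1 at 5.088 and CHCHD1 at 4.71. All 15 translation factor genes had one, with a median of 9.55. The initiation factor gene MTIF3 had the highest, 24.8 (21.9 to 28.1), followed by the ribosome recycling factor gene MRRF at 17.1 (14.3 to 20.2), and the elongation factor gene TUFM had 7.48 (5.52 to 9.92). Of 29 genes for assembly factors and rRNA modification, 28 had one, with a median of 9.81. NGRN had 19.9 (17.05 to 23.02), with a start shared with CIB1, and MRM1, a methyltransferase gene, 18.9 (16.2 to 21.9). The GTPase gene NOA1 was the exception, with no summit in the gene or within 1 kb.

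Few pseudogenes of the mitochondrial ribosomal protein genes had peaks. Of 106, 2 (1.89%, Wilson 95% interval 0.519 to 6.62) had a summit in the pseudogene or within 1 kb of it, where 6.16% of all annotated pseudogenes did, a share inside that interval. These were MRPL45P2 on chromosome 17, with a fold of 9.54 (7.48 to 11.997), and MRPS31P5 on chromosome 13, with a strongest fold of 4.41 (2.96 to 6.35). Both are among the 3 of the 106 that are annotated as transcribed, and the third, MRPL42P5, had no summit. Of all transcribed pseudogenes, 34.3% had one. No source used here says how reads that map to several places were treated.

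Of 7 long non-coding RNA genes named after members, 4 had a summit, with folds from 7.97 to 9.67, where 31.4% of all long non-coding RNA genes had one. The summits at MRPS35-DT, MRPS30-DT and MRPS9-AS2 were the start peaks of MRPS35, MRPS30 and MRPS9 themselves. That at MRPL20-AS1, with 8.94 (6.84 to 11.5), lay 368 bp from the start of CCNL2.

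The cytosolic ribosomal protein genes, the nearest comparable group, had higher folds at the median than the mitochondrial ones. A start peak was found at 77 of 77 mitochondrial and 78 of 81 cytosolic ribosomal protein genes, with median start folds of 9.05 and 11.0. In the top 10% of all protein-coding genes with a start peak were 10.4% of the mitochondrial and 28.2% of the cytosolic genes, and in the top 25% were 32.5% and 48.7%. Peaks wider than 2 kb were found at 15 mitochondrial genes (19.5%), against 41 cytosolic ones (52.6%) and 30.04% of all protein-coding genes with a start peak, and the median widths of the start peaks were 1454, 2093 and 1542 bp. The median control levels at the start summits were 6.498 and 6.355.

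**Figure D5:**
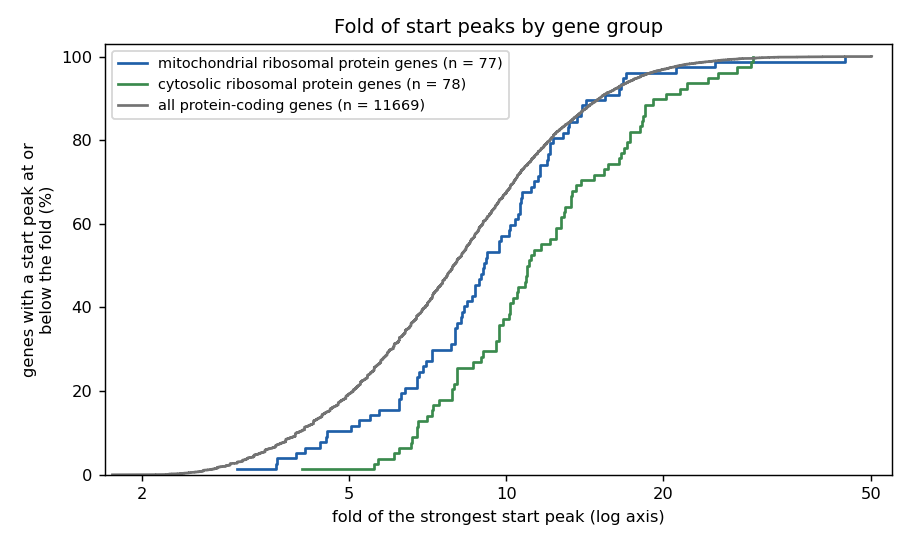
Cumulative share of genes (%) against the fold of the strongest start peak (log axis) for 77 mitochondrial ribosomal protein genes, 78 cytosolic ribosomal protein genes and 11669 protein-coding genes with a start peak. The mitochondrial curve runs between the others in its lower part, with a median of 9.05 between 11.0 and 7.92, and it meets that of all protein-coding genes near its top, where 10.4% of the mitochondrial genes are in the top 10%.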

How the data were processed

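CUT&RUN peaks over the Myc libraries were taken from 1 deposited list. Per the submitters' processing notes the tools included BWA 0.7.15 and MACS2 2.1.2, with build hg38. No source used here gives their settings, the control, the handling of duplicates or how replicates were joined. Per the narrowPeak format, the authors' values are a fold ratio at the summit, the −log10 of the p-value and q-value, and a score. The lowest deposited −log10 q was 1.30. The list was read as 1 value per peak. No column of per-sample values was used.

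Whole-number pileups gave back the deposited −log10 p within 0.001 at all 47016 peaks. The procedure was tested on simulated data. Gene spans, starts and promoter sequences came from RefSeq tables (GRCh38.p14, the sequence of hg38). Starts were those of the promoter table plus the outer 5′ end. For 8 members and 4195 protein-coding genes in all, the table gave no strand, and either end counted as a start. Read-through genes were not counted as partners. Members and lists were chosen with earlier results of these data known. Named in full were the 10 highest and 5 lowest members and those with 3 or more summits; MRPS18A, MRPS18C, the genes by place in the ribosome and all printed sequences but those with an E-box were added after their values were seen. Python 3.11.15, pandas 2.3.3 and SciPy 1.17.1 were used. Alternatives covered windows, thresholds, overlap, peak width, subunit and the shared-start distance.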

Additional observations from a re-analysis of the deposited data

How the results depend on the processing

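Across 13 alternatives to 18 results, 109 values were classed as the same, 7 as moved and 1 as reversed. A share or median was the same within its interval, and a count within 1.5 times. A difference of medians was the same if its sign held, whatever its size. The number of members with a peak was 77 with windows of 500 bp or 2 kb, at starts alone, with any overlap of the interval and with 1 peak per interval, which changed nothing since no interval held more than 1 summit. It was 76 at a −log10 q of 5 or more, where MRPL44 was lost (64.5% of all protein-coding genes kept a peak), 70 at a fold of 5 or more (53.9%) and 64 without peaks wider than 2 kb (60.3%). At a fold of 5 or more the share fell to 91.8% in the large and 89.3% in the small subunit, and to 96.9% at shared and 86.7% at unshared starts. Without wide peaks it fell to 81.6% in the large and 85.7% in the small subunit, and to 71.9% at shared and 91.1% at unshared starts, since such peaks are then left out by construction. The difference of the large minus the small subunit median, 0.74, was -0.078 with the subunit taken by structure, 0.275 without wide peaks and 1.004 at a fold of 5 or more. The shared minus unshared difference, 2.50 by the strongest peak in the gene or within 1 kb, ranged from 1.75 to 2.43 where its value changed. It was 2.43 by the start peaks, whose medians are given above. The YY1 motif was found at 3 members in the 250 bases before the start alone, against 13 in the longer window. No paired analysis was possible because the list holds no value per library, and for the same reason no replicate could be left out. Depth limits the start peaks of the lowest members, at 21 to 28 fragments, and the weakest of the other summits, down to 15 fragments inside MRPS35.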
